A study of Homo sapiens with 8 samples.

Results

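The 10 genes described here are cyclins and cyclin-dependent kinases (CDKs) that drive the cell cycle: CCND1, CCND3, CDK4 and CDK6 of the G1 phase, CCNE1 and CCNE2 of the step from G1 to S phase, and CCNA2, CCNB1, CCNB2 and CDK1 of S phase, G2 and mitosis. They were chosen by gene name from the array design, out of 43317 genes with a probe, with earlier results of these data known. Together they had 13 probes, and each gene was read from its brightest one. All 10 were above background in both channels on every array. Their log2 ratios of transfected over mock cells differed most between the classes in PC3 cells with miR-99a-3p, where the S and G2/M members were 3.45-fold to 8.14-fold lower than in mock cells. The G1 members did not go one way there: CDK4 was 2.14-fold lower, CCND3 had a log2 ratio of −0.03, CCND1 was 1.36-fold higher and CDK6 was 1.92-fold higher.

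The data are 8 Agilent 2-colour arrays on a single slide, with 1 array for each condition. The study compared cells after transfection of a mature miRNA or an siRNA with mock cells of the same line, to find genes that respond to each RNA. The human lines were PC3, from prostate cancer, given either arm of miR-150 (miR-150-5p, miR-150-3p), miR-99a-3p or miR-100-3p; FaDu, from hypopharyngeal squamous cell carcinoma, given either arm of miR-99a; and PANC-1, from pancreatic cancer, given si-FOXQ1-1 or si-FOXQ1-2. On all 8 arrays RNA of the mock cells was labelled with Cy3 and RNA of the transfected cells with Cy5, and the labels describe the mock cells as not transfected. There was no control miRNA among the arrays analysed here, and without a dye swap the transfection and the dye cannot be told apart. The labels give no time after transfection. With 1 array per condition there was no replicate and no test of a ratio. The error given with a log2 ratio is the one the scanner software assigned, or the SD between repeated spots of an array, and both leave out the variation between cultures.

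A cyclin is the regulatory subunit that switches on its CDK. The D cyclins with CDK4 and CDK6 act in G1 and respond to growth signals, the E cyclins act with CDK2 at the start of DNA replication, cyclin A2 acts in S phase and G2, and the B cyclins with CDK1 bring the cell into mitosis. Transcripts of the S phase and mitotic members are made mostly in cycling cells. Their promoters are controlled through E2F sites and through elements known as the CHR and the CCAAT box. In RNA of a whole culture, fewer cells in S phase or mitosis and less of the transcript per cell cannot be told apart.

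The transfected miRNAs are shown because the arms of miR-99a and the related miR-100 bear on the comparisons that follow. RefSeq sequences (GRCh38.p14) were found for 3 of the 5 miRNAs, and are given 5′ to 3′ with the seed, bases 2 to 8, in capitals. No sequence is shown for miR-150-5p and miR-150-3p.
miR-99a-3p: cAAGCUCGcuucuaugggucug
miR-100-3p: cAAGCUUGuaucuauagguaug
miR-99a-5p: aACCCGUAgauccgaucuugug
The seeds of miR-99a-3p and miR-100-3p were alike at 6 of 7 bases, and the whole miRNAs at 17 of 22 positions. The seed of miR-99a-5p was alike to that of miR-99a-3p at 2 of 7 bases. miR-99a-3p lies at chr21:16539138-16539159 (plus strand) and miR-100-3p at chr11:122152240-122152261 (minus strand).

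Between 19184 and 20919 genes per array were detected, meaning well above background in at least 1 channel, and the median log2 ratio of genes above background in both channels lay between 0.003 and 0.072. FOXQ1, the target of the siRNAs, had a log2 ratio of −2.16 (error 0.29) with si-FOXQ1-1 and −2.12 (error 0.28) with si-FOXQ1-2, and between −1.29 and 0.89 on the 6 miRNA arrays. All 6 squamous markers were above background in both FaDu mock channels, and 1 of the 6, SFN, in all mock channels of PC3 and PANC-1. Of the 6 prostate markers, 5 were above background in all 4 PC3 mock channels and KLK3 was not in any. Of the 6 pancreatic duct markers, 4 were above background in PANC-1 and likewise 4 in each other line, and PDX1 and CFTR were not above background in any line.

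Probe positions are those of the array annotation (hg19), which does not say which exon or UTR a probe lies in. They are chr11:69468233-69468292 for CCND1, chr6:41903193-41903252 for CCND3, chr12:58142263-58142322 for CDK4, chr7:92234443-92234502 for CDK6, chr19:30315106-30315165 for CCNE1, chr4:122739995-122740054 for CCNA2, chr5:68471363-68473123 for CCNB1 and chr15:59417139-59417198 for CCNB2.

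The D cyclins and their kinases had ratios that differed from each other. Cyclin D1, the CCND1 product that links growth signals to CDK4 and CDK6, had a log2 ratio of −0.44 (miR-99a-5p) and 1.90 (miR-99a-3p) in FaDu, of 0.16 (miR-150-5p), −0.54 (miR-150-3p), 0.44 (miR-99a-3p) and 0.48 (miR-100-3p) in PC3, and of 0.61 (si-FOXQ1-1) and 0.12 (si-FOXQ1-2) in PANC-1. It stood highest in FaDu with miR-99a-3p, where its signal was 1661 in mock and 6193 in transfected cells, a 3.73-fold difference with an SD of 0.08 between 10 spots. On that array 1.72% of detected genes had a higher ratio.

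CCND3, which encodes another D cyclin, had a log2 ratio of 0.08 (miR-99a-5p) and 1.07 (miR-99a-3p) in FaDu, of −0.67 (miR-150-5p), −0.25 (miR-150-3p), −0.03 (miR-99a-3p) and −0.05 (miR-100-3p) in PC3, and of −0.10 (si-FOXQ1-1) and −0.18 (si-FOXQ1-2) in PANC-1. It was beyond its error in 3 conditions, above 0 in FaDu with miR-99a-3p and below 0 in PC3 with either arm of miR-150. CDK4, a kinase partner of the D cyclins, had a log2 ratio of −0.04 (miR-99a-5p) and −0.05 (miR-99a-3p) in FaDu, of −0.21 (miR-150-5p), −0.27 (miR-150-3p), −1.10 (miR-99a-3p) and −0.23 (miR-100-3p) in PC3, and of −0.34 (si-FOXQ1-1) and 0.00 (si-FOXQ1-2) in PANC-1. PC3 with miR-99a-3p was the condition with the lowest CDK4, 2.14-fold under mock.

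CDK6, the other kinase partner of the D cyclins, had a log2 ratio of 0.17 (miR-99a-5p) and 0.83 (miR-99a-3p) in FaDu, of 1.02 (miR-150-5p), −0.38 (miR-150-3p), 0.94 (miR-99a-3p) and −0.21 (miR-100-3p) in PC3, and of 0.21 (si-FOXQ1-1) and 0.20 (si-FOXQ1-2) in PANC-1. In PC3 with miR-99a-3p the kinases CDK4 and CDK6 therefore lay on opposite sides of 0, at −1.10 (error 0.23) and 0.94 (error 0.22). CDK6 was the only member at or above 1 with miR-150-5p, where 0.664% of detected genes were at or above 1 and 0.6% lay above CDK6.

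The E cyclins, which act with CDK2, differed from each other. CCNE1 had a log2 ratio of 0.33 (miR-99a-5p) and 0.59 (miR-99a-3p) in FaDu, of 0.19 (miR-150-5p), −0.89 (miR-150-3p), −0.20 (miR-99a-3p) and −0.16 (miR-100-3p) in PC3, and of 0.08 (si-FOXQ1-1) and 0.31 (si-FOXQ1-2) in PANC-1. CCNE2 had a log2 ratio of 0.54 (miR-99a-5p) and 2.27 (miR-99a-3p) in FaDu, of 0.00 (miR-150-5p), −0.84 (miR-150-3p), −2.60 (miR-99a-3p) and −0.74 (miR-100-3p) in PC3, and of 0.31 (si-FOXQ1-1) and 0.05 (si-FOXQ1-2) in PANC-1. It held both the highest ratio of any member on the FaDu miR-99a-3p array and the second lowest on the PC3 miR-99a-3p array. The CCNE2 probe was dim, with signals of 181.1 in mock and 871.7 in transfected FaDu cells and of 687.3 and 113.1 in PC3 cells. A second, dimmer CCNE2 probe gave 0.32 (error 0.81) in FaDu, where it was not above background in either channel, and −1.13 (error 0.37) in PC3, where the transfected channel was not above background.

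Cyclin A2, encoded by CCNA2, had a log2 ratio of 0.55 (miR-99a-5p) and 1.59 (miR-99a-3p) in FaDu, of −0.52 (miR-150-5p), −0.96 (miR-150-3p), −2.20 (miR-99a-3p) and −0.48 (miR-100-3p) in PC3, and of 0.43 (si-FOXQ1-1) and 0.15 (si-FOXQ1-2) in PANC-1. All 4 PC3 arrays were below 0 and all 4 other arrays above it. In PC3 with miR-99a-3p the CCNA2 signal was 642.0 in mock and 139.5 in transfected cells, a 4.6-fold difference, and the SD between 10 spots was 0.40, the largest of the 3 members with repeated spots (CCND1, CCNA2 and CDK1).

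The B cyclins, partners of CDK1, followed each other closely. CCNB1 had a log2 ratio of 0.40 (miR-99a-5p) and 0.87 (miR-99a-3p) in FaDu, of −0.17 (miR-150-5p), −0.45 (miR-150-3p), −1.97 (miR-99a-3p) and −0.54 (miR-100-3p) in PC3, and of 0.28 (si-FOXQ1-1) and 0.09 (si-FOXQ1-2) in PANC-1. CCNB2 had a log2 ratio of 0.27 (miR-99a-5p) and 0.69 (miR-99a-3p) in FaDu, of −0.42 (miR-150-5p), −0.55 (miR-150-3p), −1.79 (miR-99a-3p) and −0.71 (miR-100-3p) in PC3, and of 0.05 (si-FOXQ1-1) and −0.11 (si-FOXQ1-2) in PANC-1. A second CCNB1 probe, above background in both channels throughout, gave −1.61 (error 0.25) in PC3 and 1.26 (error 0.23) in FaDu with miR-99a-3p.

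CDK1, the kinase of mitotic entry, had a log2 ratio of 0.37 (miR-99a-5p) and 0.86 (miR-99a-3p) in FaDu, of −0.39 (miR-150-5p), −1.01 (miR-150-3p), −3.02 (miR-99a-3p) and −0.92 (miR-100-3p) in PC3, and of −0.01 (si-FOXQ1-1) and −0.01 (si-FOXQ1-2) in PANC-1. Its value in PC3 with miR-99a-3p was the lowest of any member on any array, with a signal of 5634 in mock and 692.2 in transfected cells and an SD of 0.16 between 10 spots. Only 0.13% of detected genes on that array had a lower ratio. A second CDK1 probe gave −2.82 (error 0.63) there, with the transfected channel not above background. The bright CDK1 probe lies at chr10:62552004-62553650 (hg19, from the array annotation), a stretch of 1647 bases that is longer than the 60-base probe itself.

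**Figure D1:**
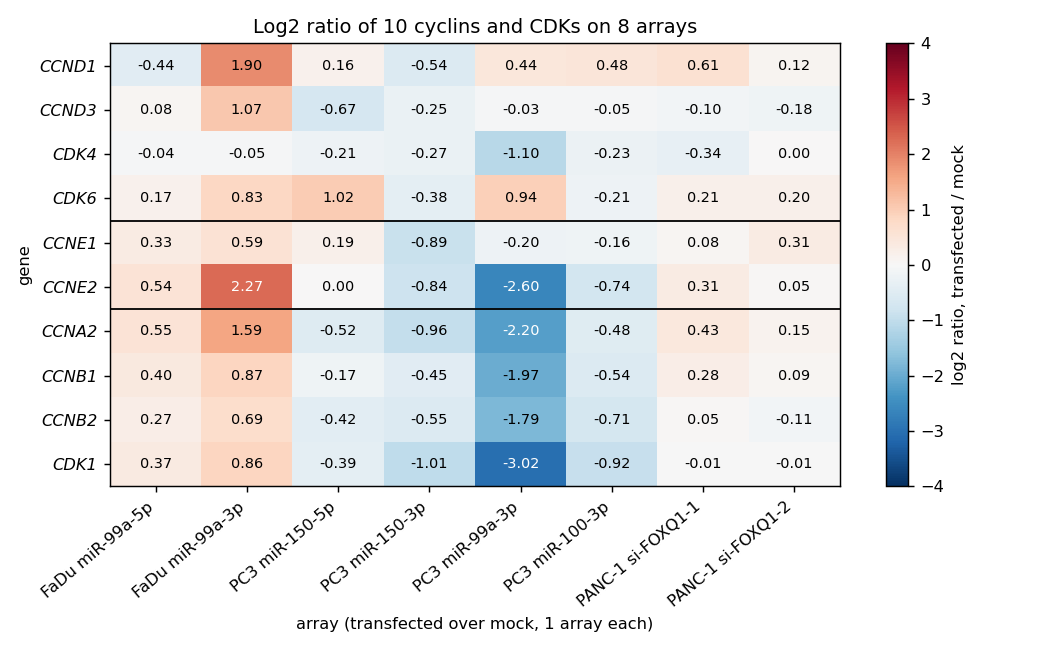
Log2 ratio of transfected over mock cells for the 10 members (rows, G1 members at the top, E cyclins in the middle, S and G2/M members at the bottom) on each of the 8 arrays (columns), with the value printed in each cell. The column of PC3 with miR-99a-3p runs from −3.02 for CDK1 to 0.94 for CDK6, and the column of FaDu with miR-99a-3p from −0.05 for CDK4 to 2.27 for CCNE2.

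A 2-fold mark, a log2 ratio at or beyond 1 or −1, was used to count members. The members were chosen with earlier results of these data known, so the counts are a description. In PC3 with miR-99a-3p, 6 of 10 members (CDK4, CCNE2, CCNA2, CCNB1, CCNB2 and CDK1) were at or below −1, against 7.39% of detected genes. In FaDu with the same miRNA, 4 of 10 (CCND1, CCND3, CCNE2 and CCNA2) were at or above 1, against 8.25% of detected genes. With miR-150-3p, CDK1 alone was at or below −1, against 6.68%, and with miR-150-5p CDK6 alone was at or above 1, as given with its values. No member passed the mark with miR-99a-5p in FaDu (5.72% of detected genes at or beyond it), miR-100-3p in PC3 (4.33%), si-FOXQ1-1 (4.21%) or si-FOXQ1-2 (3.7%). Some of these calls changed with the processing, as given at the end.

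The classes were compared by the median log2 ratio of CCNA2, CCNB1, CCNB2 and CDK1 less that of CCND1, CCND3, CDK4 and CDK6. This difference was −2.29 in PC3 with miR-99a-3p, where the S and G2/M members lay between −3.02 and −1.79 and the G1 members between −1.10 and 0.94 with no overlap. It was −0.50 with miR-100-3p, −0.43 with miR-150-3p and −0.38 with miR-150-5p in the same line, and of these the classes did not overlap with miR-100-3p. The nearest members there, CCNA2 at −0.48 (error 0.21) and CDK4 at −0.23 (error 0.21), had errors that overlapped. In FaDu the difference was 0.37 with miR-99a-5p, where all 4 S and G2/M members lay above all 4 G1 members, and −0.08 with miR-99a-3p, where the medians were 0.86 and 0.95. With miR-99a-5p the nearest members, CCNB2 at 0.27 (error 0.21) and CDK6 at 0.17 (error 0.20), also had errors that overlapped. In PANC-1 the difference was 0.11 with si-FOXQ1-1 and −0.02 with si-FOXQ1-2, with overlap of the classes on both arrays. The S and G2/M members were below 0 on all 4 PC3 arrays and above 0 on both FaDu arrays, 4 of 4 each time. CCNB1 with miR-150-5p was within its error, at −0.17 (error 0.20), and its second probe gave −0.02 (error 0.20). Of all detected genes, 48.8% to 52.6% were below 0 on the PC3 arrays, and 52.2% and 54.4% on the FaDu arrays.

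**Figure D2:**
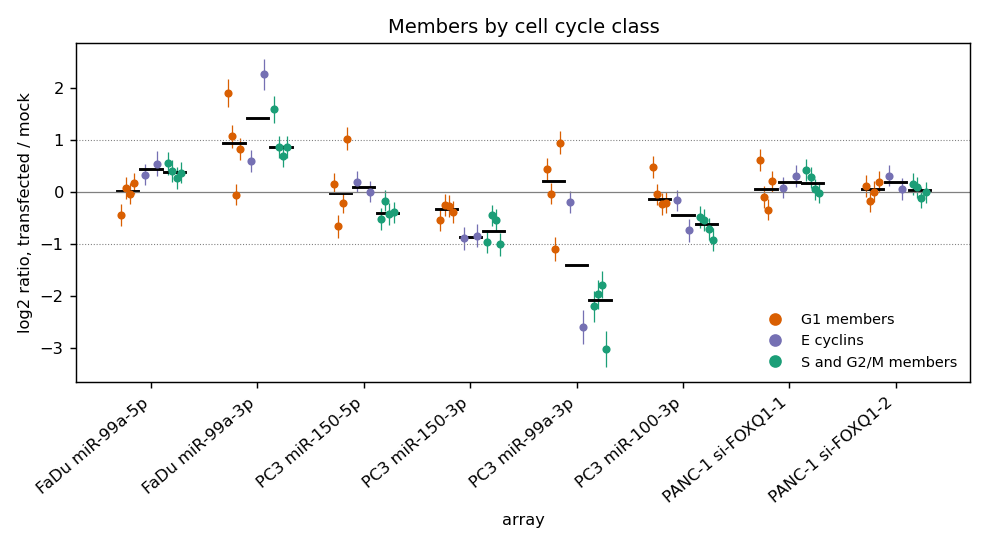
Log2 ratio of each member on each array, in orange for G1 members, purple for E cyclins and green for S and G2/M members, with the scanner software's error as bars, the class median as a black line and the 2-fold mark as dotted lines. The green points lie below every orange point in PC3 with miR-99a-3p, with medians of −2.09 and 0.21.

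The same miRNA was put into FaDu and into PC3, so that the response to miR-99a-3p could be set side by side. CDK1 was at 0.86 in FaDu and −3.02 in PC3, a difference of 3.89 (joined error 0.41). CCNE2 differed by 4.87 (joined error 0.44), CCNA2 by 3.79 (0.39), CCNB1 by 2.84 (0.35) and CCNB2 by 2.48 (0.34), each above 0 in FaDu and below 0 in PC3 by more than its error. With normexp background correction and loess the difference was 3.50 for CCNE2, from 1.66 in FaDu and −1.84 in PC3, and 3.04 for CCNA2, from 1.39 and −1.65, while it was 3.76 for CDK1. CDK6 was the exception, at 0.83 in FaDu and 0.94 in PC3. CCND1 and CCND3 were higher in FaDu, CDK4 was lower in PC3, and CCNE1 was at 0.59 in FaDu and −0.20 in PC3. The difference between the lines rests on 1 array in each, and was not tested.

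**Figure D3:**
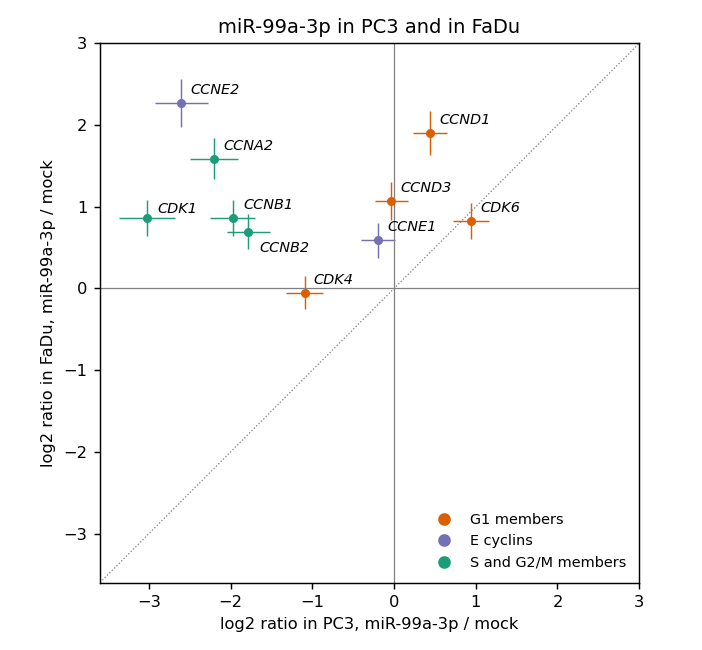
Log2 ratio with miR-99a-3p in PC3 (horizontal axis) against FaDu (vertical axis) for the 10 members, with the scanner software's errors as bars and equality as a dotted line. CCNE2, CCNA2, CDK1, CCNB1 and CCNB2 sit in the upper left, below 0 in PC3 and above 0 in FaDu, and CDK6 lies next to the line at 0.94 and 0.83.

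Within PC3, miR-99a-3p was set beside miR-100-3p, whose seed is alike at all but 1 base. The 4 S and G2/M members and CCNE2 were below 0 with both, and lower with miR-99a-3p by 2.11 for CDK1 (joined error 0.41), 1.86 for CCNE2 (0.39), 1.72 for CCNA2 (0.36), 1.43 for CCNB1 (0.34) and 1.08 for CCNB2 (0.34). CCND1, CCND3 and CCNE1 differed by at most 0.04 between these arrays, within a joined error of 0.29. CDK6 was higher with miR-99a-3p, at 0.94 against −0.21, and CDK4 lower, at −1.10 against −0.23. The arms of miR-99a in FaDu differed most at CCND1, which was at −0.44 with miR-99a-5p and 1.90 with miR-99a-3p, and least at CDK4, at −0.04 and −0.05.

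The arms of miR-150 in PC3 separated CDK6, at 1.02 with miR-150-5p and −0.38 with miR-150-3p, and CCNE1, at 0.19 and −0.89. With miR-150-3p all 10 members were below 0 by more than their error, against 30.5% of detected genes. With miR-150-5p 5 members were below 0 and 1 above it by more than their error, against 24.3% and 21.6% of detected genes. With the siRNAs against FOXQ1 the members lay between −0.34 and 0.61, with 6 members beyond their error with si-FOXQ1-1, against 42.7% of detected genes, and 1, CCNE1 at 0.31, with si-FOXQ1-2, against 37.3%. FOXQ1 differed by less than its error between these arrays, while CCND1 was at 0.61 with si-FOXQ1-1 and 0.12 with si-FOXQ1-2, a difference of 0.49 with a joined error of 0.29.

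Other genes of the pathway were read from lists, which were also chosen with earlier results of these data known. There were 7 genes that act on cyclin-CDK complexes (CDC25 phosphatases, CKS subunits, WEE1 and PKMYT1). When PC3 cells had received miR-99a-3p, 5 of them were at or below −1, against 7.39% of detected genes. None was at or above 1, against 4.23%, and their median was −1.37. CDC25A, which removes inhibitory phosphate from CDKs, was at −1.37 (error 0.24) there and at 2.07 (error 0.28) in FaDu with the same miRNA. CKS1B, a small CDK subunit, was at −1.53 and 0.35. CDC25C was the lowest of the list in PC3, where its mock signal was 418.5 and its transfected signal was not well above background, which makes it at least 8.75-fold lower, and CDC25B was the highest at −0.33. In FaDu with miR-99a-3p all 7 were above 0, with a median of 0.44, where 52.2% of detected genes were below 0. In PC3 with miR-150-3p all 7 were below 0, with a median of −0.61, as were 51.7% of detected genes.

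Of 8 genes that degrade cyclins or restrain that degradation, 5 were at or below −1 in PC3 with miR-99a-3p, against 7.39% of detected genes. The median of the 8 was −1.34. UBE2C, the ubiquitin-conjugating enzyme of the anaphase-promoting complex, was the lowest at −2.96 (error 0.34), and CDC20, an activator of that complex, was at −2.10 (error 0.28). FBXW7, a ubiquitin ligase subunit that acts on cyclin E, was the highest at 0.43 (error 0.21). In FaDu with miR-99a-3p UBE2C was at 0.64 and CDC20 at 0.60. All 8 genes of the list were above 0 there, where 52.2% of detected genes were below 0. CCNF, which stands in this list and the next, was not well above background in the transfected channel of the PC3 miR-99a-3p array.

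Among 8 further cell cycle cyclins, kinases and CDK-activating kinase subunits, 5 were detected in PC3 with miR-99a-3p. CDK2, the partner of the E cyclins, had a mock signal of 187.9 there and a transfected signal not well above background, at least 3.32-fold lower, and MNAT1 was the highest at −0.16 (error 0.20). CCND2, a D cyclin, was not above background in either channel in PC3 or PANC-1 and was at 0.06 and 0.09 in FaDu. In FaDu with miR-99a-3p CCNA1, the A cyclin of the germ line, was at −3.68 (error 0.40), with signals of 959.9 and 75.03, and CDK7, the kinase that activates other CDKs, at −1.44 (error 0.24). In PC3 with the same miRNA CDK7 was at −0.30 (error 0.21), and CCNA1 was not above background in either channel. None of 11 cyclins and kinases of transcription was at or beyond 1 or −1 there, against 11.6% of detected genes, with a median of 0.29 and a range from −0.41 for CDK12 to 0.88 for CDK19.

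**Figure D4:**
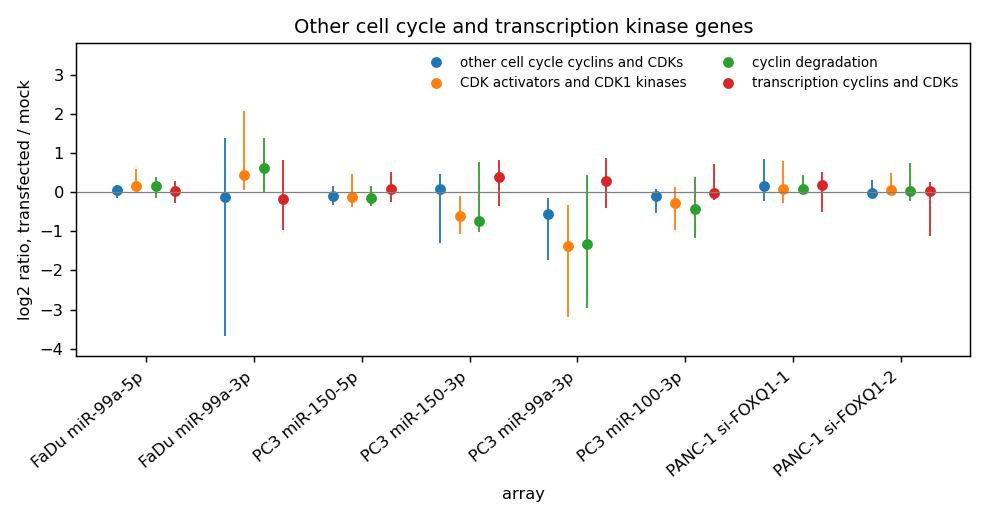
Median (point) and range (line) of the log2 ratio over the detected genes of 4 lists of other cyclin, CDK and CDK-regulating genes on each array. On the PC3 miR-99a-3p array the genes that act on cyclin-CDK complexes have a median of −1.37. The genes that degrade cyclins or restrain that degradation have −1.34 and the transcription genes 0.29. The ranges take in genes whose transfected channel was not above background.

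The genes whose log2 ratio ran most like that of CDK1 over the 8 arrays, among 10251 genes above background in both channels throughout, were NCAPD2, CCNB1, ASPM, CENPM and KIF11, with Pearson r from 0.995 to 0.996. Without the PC3 miR-99a-3p array r was between 0.983 and 0.987 over 7 arrays. Among the members, CCNB2 reached 0.986, CCNA2 0.961, CCNE2 0.956 and CDK4 0.913 with CDK1, while CDK6 was at −0.109. Without the PC3 miR-99a-3p array r with CDK1 was 0.627 for CDK4, 0.601 for CDK6 and 0.975 for CCNB2, so that the value for CDK6 rests on that array. The genes most like CCND1 were NUP98, MSL1, MAP3K11, UQCC1 and RASA3, with r from 0.958 to 0.987, and of the members CCND3 came nearest at 0.75, or 0.033 without the FaDu miR-99a-3p array. The arrays share a slide, 3 cell lines and similar RNA pairs, and r is given as a description.

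Promoters of the 4 S and G2/M members are shown because these genes lay on the same side of 0 on all PC3 and FaDu arrays. The 150 bases before the RefSeq start (GRCh38.p14) are given 5′ to 3′ on the gene's strand, with matches to the searched motifs on either strand in capitals. They lie at chr4:121823884-121824033 (minus strand) for CCNA2, chr5:69167000-69167149 for CCNB1, chr15:59104996-59105145 for CCNB2 and chr10:60778181-60778330 for CDK1 (plus strand).
CCNA2: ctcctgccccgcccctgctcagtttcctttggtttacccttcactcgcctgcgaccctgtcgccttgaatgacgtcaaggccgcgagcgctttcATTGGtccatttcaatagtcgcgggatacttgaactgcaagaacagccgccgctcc
CCNB1: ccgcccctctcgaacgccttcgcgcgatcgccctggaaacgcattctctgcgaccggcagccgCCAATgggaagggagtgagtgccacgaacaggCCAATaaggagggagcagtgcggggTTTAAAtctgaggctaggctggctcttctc
CCNB2: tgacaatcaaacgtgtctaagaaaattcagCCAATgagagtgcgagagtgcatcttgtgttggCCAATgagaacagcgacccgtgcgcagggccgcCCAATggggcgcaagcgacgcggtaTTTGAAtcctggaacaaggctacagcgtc
CDK1: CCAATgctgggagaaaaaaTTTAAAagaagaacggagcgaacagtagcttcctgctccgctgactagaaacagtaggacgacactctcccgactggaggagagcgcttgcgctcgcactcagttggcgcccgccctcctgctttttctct
The search covered 250 bases before and 50 after the most upstream start, for 8 members with a window. The CCAAT box (CCAAT) was in all 4 S and G2/M members and in none of the other 4 (CCND3, CDK4, CDK6 and CCNE1), and in 35.7% of 27305 promoters of the same length. A searched word of the CHR (TTTGAA or TTTAAA, the second the same on both strands) was in CCNE1, CCNB1, CCNB2 and CDK1, and in 24.4% of promoters. Other forms of the CHR were not searched, so a gene without these words may still hold one. An E2F-type motif (TTTGGCGC, TTTCCCGC, TTTCGCGC or TTTGCCGC) was in CDK1 alone, and in 3.34% of promoters. The E2F-type match of CDK1 begins at base 20 from the start, outside the shown stretch. The motifs do not overlap each other in the shown stretches. CDK1, CDK6 and CCND3 have further starts in RefSeq, and both other windows of CCND3 held 1 CCAAT each. The other window of CDK1 held 3 CHR words, 2 CCAAT and 1 E2F-type motif, and that of CDK6 held no match. These matches describe letters in a window and were not tied to the ratios by any test.

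The level of each member in the mock cells of the 3 lines was compared as the log2 signal less the 75th percentile of its array channel, over 4 mock channels of PC3 and 2 each of FaDu and PANC-1, with limma and Benjamini-Hochberg adjustment over 22731 genes. The labels do not say that mock channels of a line were separate cultures, so the p-values measure the spread between hybridisations. CDK6 was highest in PANC-1 at 4.07 ± 0.02 (SD, n = 2), then FaDu at 3.68 ± 0.03 (n = 2) and PC3 at 2.68 ± 0.04 (n = 4), and its level in PC3 was 2.61-fold under that in PANC-1 (limma adjusted p = 1.29e-06). CCNE1 was highest in PANC-1 at 3.86 ± 0.03, then PC3 at 2.72 ± 0.08 and FaDu at 2.09 ± 0.02, and all 3 pairs of lines differed.

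CCNE2 ran in another order, with PC3 at 1.52 ± 0.24 (SD, n = 4), PANC-1 at 0.45 ± 0.01 and FaDu at −0.32 ± 0.04, and FaDu was 3.58-fold under PC3 (limma adjusted p = 3.31e-05). CDK1 was highest in PC3 at 4.47 ± 0.12, with PANC-1 at 3.63 ± 0.01 and FaDu at 3.36 ± 0.01, the last pair not passing the test (limma adjusted p = 0.0534, or 0.00214 with normexp). CCND1 was at 3.82 ± 0.17 in PC3, 3.10 ± 0.35 in FaDu and 2.65 ± 0.01 in PANC-1. The FaDu mock channels of CCND1 stood at 3.35 on the miR-99a-5p array and 2.85 on the miR-99a-3p array, the one with its highest ratio, and no other member had an SD above 0.05 in FaDu. CCND3 was highest in PC3 at 2.37 ± 0.14, then PANC-1 at 2.00 ± 0.07 and FaDu at 1.28 ± 0.05.

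CDK4 was highest in PANC-1 at 5.65 ± 0.05, and PC3 at 5.18 ± 0.13 and FaDu at 5.11 ± 0.01 did not pass the test (limma adjusted p = 0.55, or 0.00631 with normexp). CCNB1 was at 5.83 ± 0.04 in PANC-1, 5.17 ± 0.02 in FaDu and 4.94 ± 0.21 in PC3, the last pair not passing the test (limma adjusted p = 0.155, or 0.0102 with the mean over its probes). CCNB2 was at 5.43 ± 0.08 in PANC-1, 5.25 ± 0.01 in FaDu and 4.56 ± 0.16 in PC3, with PC3 lower than both. CCNA2 was at 1.70 ± 0.02 in PANC-1, 1.41 ± 0.26 in PC3 and 1.05 ± 0.03 in FaDu, and of its pairs only FaDu and PANC-1 passed (limma adjusted p = 0.0172). Without any 1 of the 4 FaDu and PANC-1 channels that pair did not pass (limma adjusted p from 0.0558 to 0.0677), its line then having 1 channel. In all, 7 of 10 members differed between FaDu and PC3 against 74.6% of genes tested, 9 of 10 between PANC-1 and PC3 against 66.4%, and 7 of 10 between FaDu and PANC-1 against 68.7%. Both counts of 7 are near the share of all genes.

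**Figure D5:**
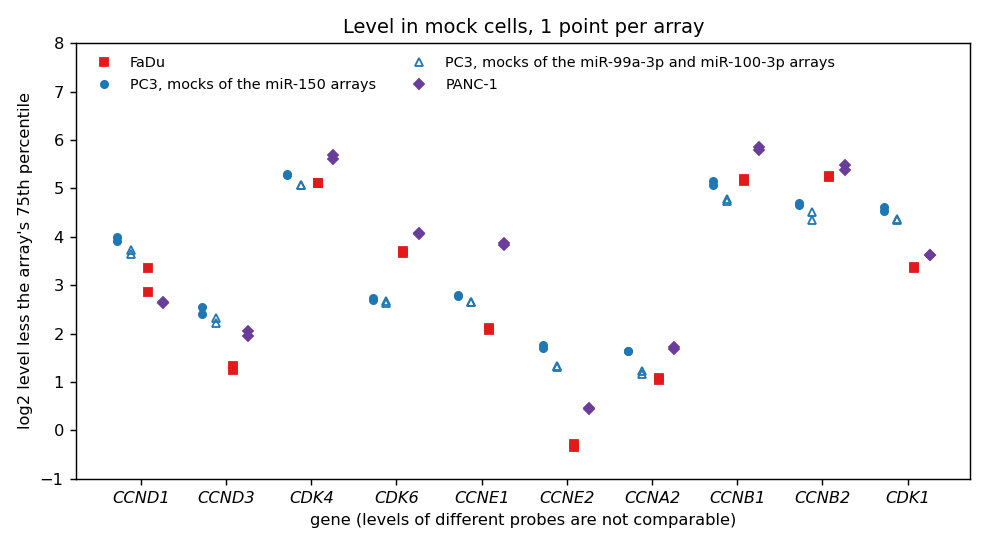
Level of each member in mock cells, as log2 signal less the 75th percentile of the array, 1 point per mock channel. CDK6 and CCNE1 are highest in PANC-1 and CCNE2 and CDK1 in PC3, and for all 10 members the PC3 channels of the miR-150 arrays (filled circles) lie above those of the miR-99a-3p and miR-100-3p arrays (open triangles).

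The 4 PC3 mock channels stood in pairs. All 10 members were higher in both mock channels of the miR-150 arrays than in both of the miR-99a-3p and miR-100-3p arrays, against 28.7% of the 22731 genes, by 0.06 for CDK6 to 0.45 for CCNA2 with a median of 0.24, where the median over all genes was −0.01. CCNA2 was at 1.64 and 1.64 in the first pair and 1.22 and 1.16 in the second, and CCNE2 at 1.71 and 1.76 and at 1.32 and 1.31. In an alternative added after the data were seen, these pairs, the FaDu pair and the PANC-1 pair were each averaged to 1 sample, which leaves PC3 with 2 samples and the only spread, and FaDu and PANC-1 with 1 each, assumed to vary alike. Fewer members then passed between PANC-1 and PC3 and between FaDu and PANC-1 than with all mock channels kept apart. Their number is not given, since FaDu and PANC-1 had 1 sample each. With the mean of the 4 PC3 mock channels as the control, the log2 ratio in PC3 with miR-99a-3p was −2.98 for CDK1, −1.82 for CCNA2 and −2.03 for CCNE2. Whether the pairs are separate cultures was not tested.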

How the data were processed

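Total RNA was extracted with Trizol after transfection with Lipofectamine RNAiMAX, labelled, and hybridised to Agilent 60-base arrays, as the labels and the study's methods describe. The authors ran Agilent Feature Extraction 10.7.3.1, which corrected the background, put surrogate values in place of signals not above background and normalized the dyes by a linear and a lowess step within each array. The deposited log10 ratios are of Cy5 over Cy3, and the deposited intensities are not scaled between arrays, so a mock level also carries the dye normalization of its array. The series' value table equalled the scanner ratios, with a largest difference of 0.

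The log10 ratios were multiplied by 3.3219 to give log2 ratios. Control spots and outlier-flagged spots (81 to 178 gene spots per array) were left out. Repeated spots were averaged to 58201 probes, and the probe brightest over both channels of the 8 arrays stood for its gene. Groups came from the labelled transfection. A ratio was set against a mark of 1 on the log2 scale, with no test, since each condition has 1 array. The number of arrays limits the precision. Mock levels were tested with limma 3.58.1 in R 4.3.3 (lmFit and eBayes, threshold of 0.05 on the adjusted p) over genes above background in Cy3 on at least 2 arrays. This fit, and the normexp and loess step, were tested on simulated data with known changes, which both recovered. The simulated mock channels had independent noise, unlike the PC3 mock channels, which stood in pairs. How the p-values hold with such pairs was not tested. "At least" folds set the brighter signal against the higher of the dim channel's own signal and the lowest signal above background among the genes of that array. The remaining work was done in Python 3.11.15 with pandas 2.3.3, numpy 2.4.6 and matplotlib 3.10.9.

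The text names all 10 members, FOXQ1, 6 pathway genes (CDK2, CCND2, CDC25A, CKS1B, CDC20 and UBE2C), the genes at either end of each list with miR-99a-3p in PC3, and the 5 genes most like CDK1 and the 5 most like CCND1. CDK7, CCNF and CCNA1 were named after their values were seen. The members and lists were chosen with earlier results of these data known. Alternatives were normexp (offset 50) with loess, the mean or the lowest probe, outlier spots kept, both channels above background, centring, the series' values, the mean of the PC3 mock channels as the control, other marks, E cyclins put in either class, and for mock levels quantile normalization, normexp, no filter, the mean over probes and each channel left out.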

Additional observations from a re-analysis of the deposited data

Results flagged for a closer look

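The same miRNA, miR-99a-3p, gave log2 ratios of opposite sign in FaDu and PC3 for 5 members, each beyond the scanner software's error in both lines. The ratio in FaDu less that in PC3 was 4.87 for CCNE2, 3.89 for CDK1, 3.79 for CCNA2, 2.84 for CCNB1 and 2.48 for CCNB2. Each line has 1 array, so the difference was not tested. With normexp and loess the differences were 3.50 for CCNE2, 3.76 for CDK1, 3.04 for CCNA2, 2.86 for CCNB1 and 2.49 for CCNB2, and with the lowest probe that of CCNE2 was 2.92.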

How the results depend on the processing

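The lower value of S and G2/M members against G1 members in PC3 with miR-99a-3p kept its sign under all 10 alternatives, from −2.30 to −1.97. It moved most, to −2.01 with normexp and loess and −1.97 with the E cyclins counted as G1. Some alternatives could not change a class difference. Centring shifts all members alike, and the series' values and the filter on both channels left every member as it was. The differences with miR-100-3p (−0.51 to −0.44), miR-150-3p (−0.54 to −0.24) and miR-150-5p (−0.49 to −0.26) also kept their sign, as did that with miR-99a-5p in FaDu (0.26 to 0.43), while those near 0 in FaDu with miR-99a-3p and in PANC-1 took both signs. Counts of members past the mark depended on the mark. At 0.58 on the log2 scale they were 9 with miR-99a-3p in FaDu (37.9% of detected genes) and 2 with miR-150-5p (14.7%). They were 4 with miR-150-3p (24.6%), 3 with miR-100-3p (13.4%) and 1 with si-FOXQ1-1 (12.5%). CDK6 with miR-150-5p, at 1.02, and CDK1 with miR-150-3p, at −1.01, did not reach a mark of 1.5. Members also crossed the mark of 1 with other settings. CDK6 with miR-150-5p fell to 0.92 with normexp and loess, 0.99 with centring and 0.87 with the mean PC3 mock. CCND3 in FaDu with miR-99a-3p fell to 0.89 with normexp and loess, and CCNE2 there to 0.32 with the lowest probe. With the mean PC3 mock CDK1 was at −0.94 with miR-150-3p and −1.015 with miR-100-3p. With the mean over probes CDK1 was at 1.13 with miR-99a-5p and CCNB1 at 1.07 in FaDu with miR-99a-3p. CCNE2 with miR-150-3p was at −1.12 with the lowest probe.

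No log2 ratio of a member beyond its error changed sign, but 24 of 600 values moved by more than their error, 12 of them of CCNE2 and 5 of CDK1, whose second probes are dim. Of these moves, 8 came with the mean over probes, 7 with the mean PC3 mock, 6 with the lowest probe and 3 with normexp and loess. Centring, the series' values, the filter on both channels and outlier spots kept moved none of 80 values each. Only 3 members have several probes, so many of the 600 values could not move. For mock levels, the counts of members differing between lines changed when 1 mock channel at a time was left out. They are not given, since the share of all genes does not stand beside them. CCNA2 between FaDu and PANC-1 no longer passed without either FaDu or either PANC-1 channel (limma adjusted p from 0.0558 to 0.0677), and CCND1 passed without the FaDu miR-99a-3p channel (limma adjusted p = 0.0125). CCND3 between PANC-1 and PC3 did not pass without the si-FOXQ1-2 channel (limma adjusted p = 0.0969), CCNA2 between FaDu and PC3 passed without the PC3 miR-100-3p channel (limma adjusted p = 0.0324), and CDK1 between FaDu and PANC-1 passed without the PC3 miR-150-5p or miR-99a-3p channel (limma adjusted p = 0.0358 and 0.046). Without a FaDu or PANC-1 channel that line has 1 channel, which is assumed to vary like the other lines. Normexp brought CDK4 and CCNA2 between FaDu and PC3 (limma adjusted p = 0.00631 and 0.0123) and CDK1 and CCNB2 between FaDu and PANC-1 (0.00214 and 0.0102) past the threshold, the mean over probes CCNB1 between FaDu and PC3 (0.0102), and quantile normalization CCND1 between FaDu and PANC-1 (0.0332). With pairs of channels averaged, so that PC3 alone gives the spread, fewer members passed between FaDu and PANC-1. No paired analysis was possible because there is a single array, replicate 1, of every condition and the groups share no further numbers.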
